A study of Mus musculus with 10 samples.

Results

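The 37 genes described here encode lysosomal enzymes and membrane proteins. They were selected on gene name and known function, with earlier results of the same genotype contrast in view, and each name matched 1 row of the 42465 gene models in the deposited table. They comprise 11 cathepsins, 9 glycosidases, 2 sulfatases, 4 lipid and acyl hydrolases, 1 further peptidase, 3 luminal proteins that are not enzymes and 7 membrane proteins. RNA came from mouse neural tube explants with neural crest cells, taken at embryonic day 9.5 and cultured for 4 days in DMEM that contained 10% FBS and, at 20 nM, EDN3, the ligand of the endothelin receptor Ednrb. The genotypes were WT and Ednrb-/- (called mutant below), each with 5 replicates that the labels call biological, and EDN3 was given to both. The labels give neither the strain nor the part of Ednrb that was removed. Values are FPKM, a level scaled for gene length and sequencing depth. Reads worked back from the FPKM and summed over gene models numbered between 13022266 and 19532570 per library. Ednrb-/- replicates 2 and 3 had 16399 and 17895 gene models with reads, against 20260 to 23240 in the other libraries. Ednrb itself ran from 43.8 to 60.7 FPKM in WT and from 2.34 to 11.7 FPKM in Ednrb-/- libraries, so each library matched its label.

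Lysosomes are acidic organelles that break down proteins, glycans and lipids delivered by endocytosis and autophagy. Their hydrolases carry mannose 6-phosphate and are sorted from the Golgi by its receptors, while heavily glycosylated membrane proteins line the organelle and exchange its products. Many of these genes carry a shared promoter element, named CLEAR, that is bound by TFEB, TFE3 and MITF, a small family of transcription factors. MITF is also the lineage factor of pigment cells, whose melanosomes are relatives of the lysosome and share several of its proteins.

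The shared element can be read in the members' own promoters, and the stretches that hold it are shown because the results below divide these genes into some that fell and others that did not. RefSeq promoter windows of GRCm38.p6, from 250 bases before to 50 bases after a start, were matched for 33 of the 37 genes, and Asah1, Ctsb, Ctsh and Npc1 had no entry. The motif searched was TCACGTG on either strand, which contains the palindrome CACGTG. Capitals mark it in each stretch, written 5′ to 3′ on the strand of the gene with up to 20 bases on each side of the matches nearest the start and at most 15 bases past the start.

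Ctsa, chr2:164833740-164833787, plus strand: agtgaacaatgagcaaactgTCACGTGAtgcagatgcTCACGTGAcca
Ctsd, chr7:142387899-142387946, minus strand: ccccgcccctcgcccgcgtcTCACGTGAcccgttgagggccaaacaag
Gla, chrX:134601173-134601253, minus strand: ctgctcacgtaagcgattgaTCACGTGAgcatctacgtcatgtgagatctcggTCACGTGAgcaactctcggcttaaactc
Glb1, chr9:114401009-114401055, plus strand: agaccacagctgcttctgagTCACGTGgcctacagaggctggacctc
Naglu, chr11:101070000-101070046, plus strand: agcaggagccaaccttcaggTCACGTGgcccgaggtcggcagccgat
Sgsh, chr11:119355513-119355559, minus strand: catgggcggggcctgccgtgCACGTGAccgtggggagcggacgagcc
Gaa, chr11:119267802-119267848, plus strand: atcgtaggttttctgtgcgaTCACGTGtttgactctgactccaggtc
Lamp1, chr8:13159079-13159171, plus strand: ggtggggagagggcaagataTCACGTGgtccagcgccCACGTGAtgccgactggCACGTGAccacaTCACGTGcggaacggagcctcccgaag
Mcoln1, chr8:3500427-3500500, plus strand: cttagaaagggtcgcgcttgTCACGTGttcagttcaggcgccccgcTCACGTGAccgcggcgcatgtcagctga

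These 9 genes are 27.3% of the 33 members with an entry. Of all 27025 symbols with a promoter entry, 4.29% held the motif, and over the 9732 symbols whose genes passed the filter on low values 6.97%. Lamp1, a main glycoprotein of the lysosomal membrane, held 4 copies of CACGTG within its window, and Ctsa, Ctsd, Gla and Mcoln1 held 2 each. The related sequence TCATGTG, which MITF is known to bind in pigment cell promoters, was on either strand in 7 of the 33, namely Ctsa, Ctss, Gla, Grn, Ppt1, Scarb2 and Tpp1, against 4.31% of all symbols. Without Ctss, which did not pass the filter, it was in 6 of 32, against 2.58% of symbols whose genes passed. A match is a description of letters in a window, and a window without one says nothing about binding.

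WT replicate 2 stands apart from the other WT libraries in these genes. Counts over all members called lower or without overlap, class medians and the calls of Asah1 and Lamp1 are given with and without it. Other values include it unless stated. Most of the hydrolases and 3 of the membrane proteins were lower in Ednrb-/- explants, and none of the 36 members that could be tested was called higher. A gene was tested when it had at least 0.5 FPKM in at least 5 of the 10 libraries, which Ctss did not. In the fit over all 15156 genes that passed (limma on log2(FPKM + 0.5), Benjamini-Hochberg adjusted p under 0.05), 21 of the 36 fell. Over all genes tested, 13.0% were called lower and 6.53% higher. In bulk RNA, fewer cells of a type and less RNA per cell cannot be told apart. With this contrast in view when the list was made, the count is a description and no independent evidence. The median difference on the scale log2(FPKM + 0.5), mutant minus WT, was -0.68 over the 36 members and 0.0048 over all genes tested. At an unadjusted p under 0.05, 24 members were lower and 1, Ctsf, higher, and limma voom on reads worked back from the FPKM called 21 lower and 0 higher. Of all 15156 genes tested, 2862 were lower and 2152 higher at an unadjusted p under 0.05. By voom 1904 were called lower and 1236 higher.

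The 21 fell between 1.36-fold for Gaa and 4.65-fold for Mcoln3, and 9 of them at least 2-fold. In 13 of the 36 every Ednrb-/- library lay below every WT library, against 8.44% of all genes tested. One of them, Mcoln3, passed the filter only through its WT libraries, which fixed its lack of overlap. The plot of differences by class shows each gene. Of the glycosidases 8 of 9 fell, with a median log2 difference of -0.78, and of the cathepsins 6 of 10 tested, with a median of -0.73. Of the membrane proteins 3 of 7 fell, with a median of -0.44, and of the lipid and acyl hydrolases 1 of 4, with a median of -0.32. Without WT replicate 2 the medians were -0.99 for glycosidases, -0.89 for cathepsins, -0.59 for membrane proteins and -0.44 for lipid and acyl hydrolases. Differences between the classes were not tested.

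**Figure D1:**
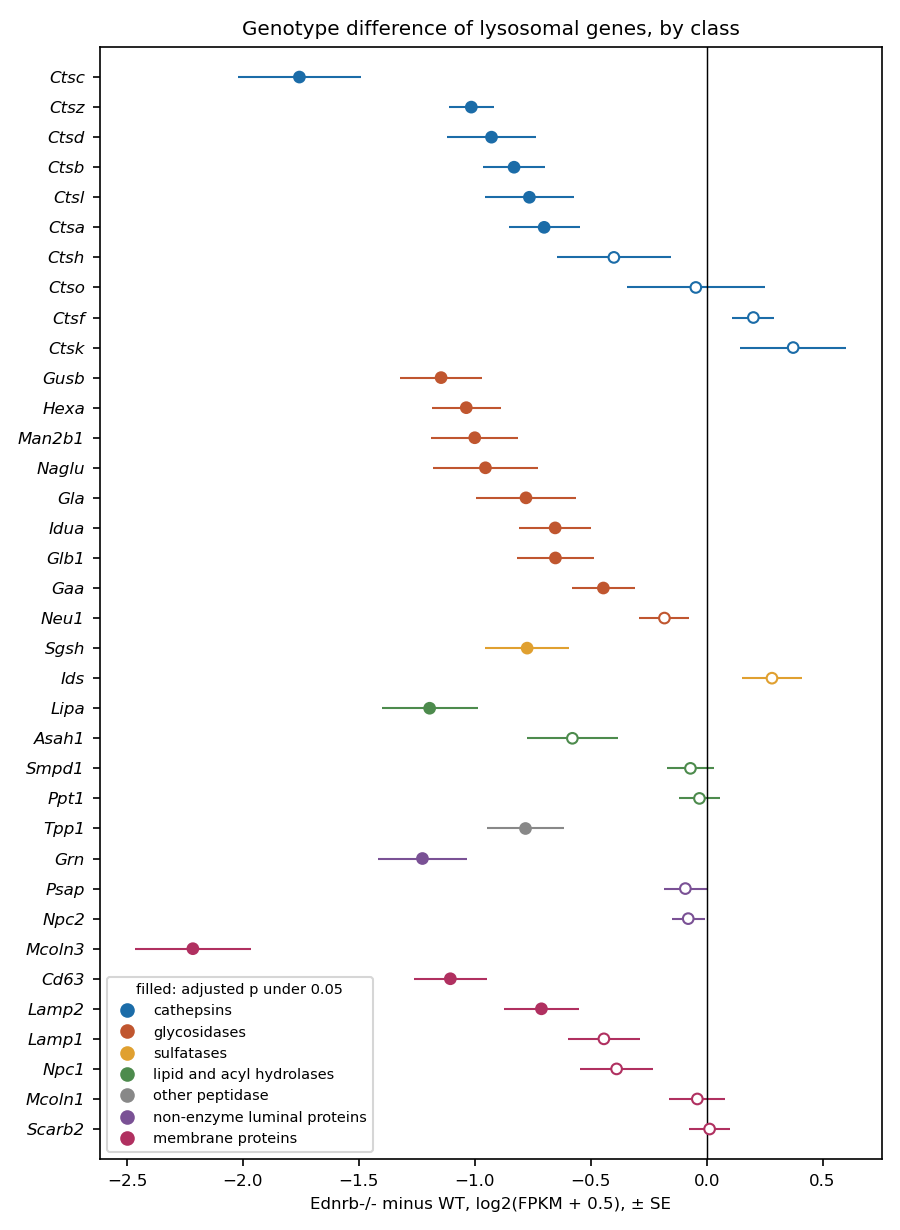
Difference between genotypes for the 36 lysosomal genes tested, on the horizontal axis as Ednrb-/- minus WT in log2(FPKM + 0.5) with its standard error, grouped by class. Filled points have an adjusted p under 0.05: 21 genes, all left of 0, led by Mcoln3 at -2.22 and Ctsc at -1.76.

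The library that stands apart, WT replicate 2, held the lowest WT value in 30 of the 36 members tested and in 20 of the 21 that fell, all but Gaa. The median of the 36 members, as log2(FPKM + 0.5) minus the WT mean, was -0.43 in this library, between 0.04 and 0.20 in the other WT libraries and between -0.84 and -0.48 in Ednrb-/- libraries. In 8 of the 21 genes that fell the groups overlapped. Leaving WT replicate 2 out, 22 of the 36 members tested had every Ednrb-/- library below every WT library, and 23 were called lower. Among the 21 that fell, 20 were without overlap, the exception being Gaa. The 22 and the 20 include Mcoln3, whose lack of overlap the filter fixed. Those 21 were called in these same libraries, and the library left out was picked for its low values. Their count is therefore a description. Dropping that library raised both shares over all genes too, to 13.5% without overlap and 14.0% called lower. The heat map shows the same library as a pale blue column among the WT libraries.

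**Figure D2:**
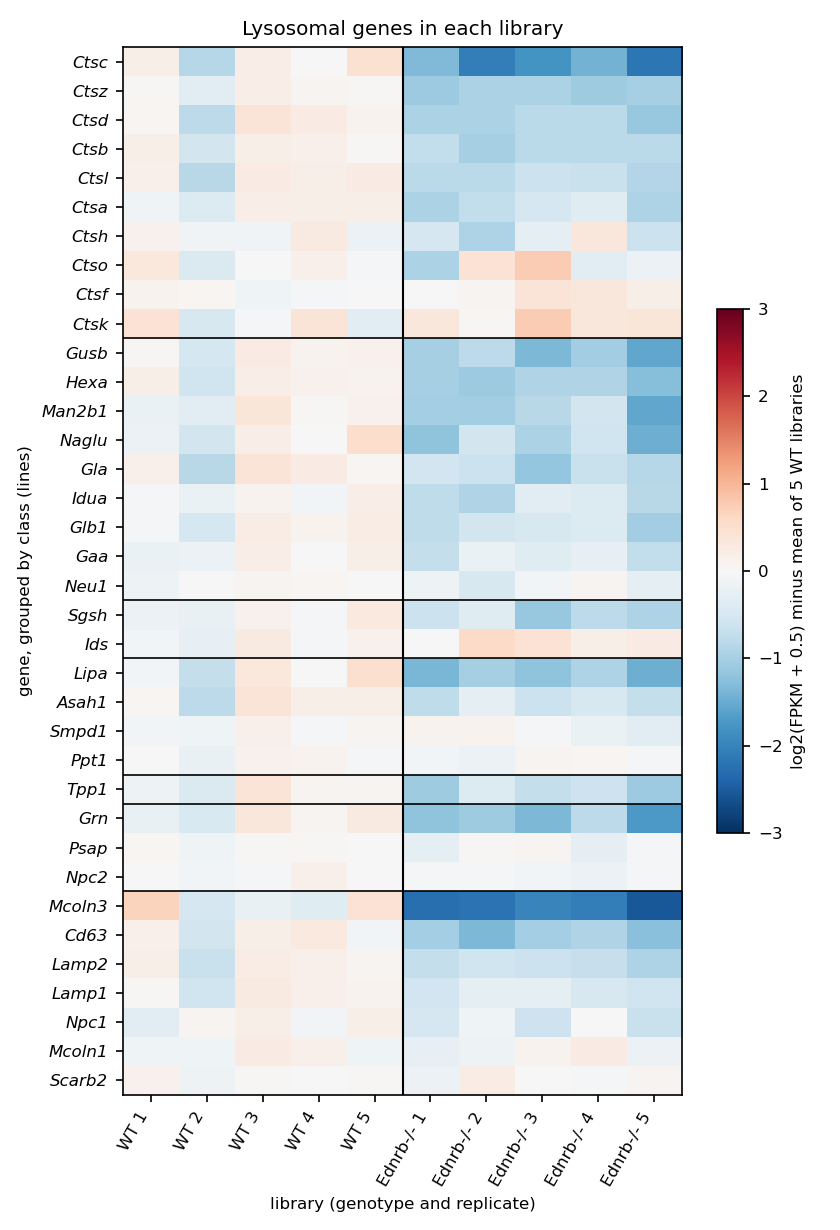
Each row is a lysosomal gene and each column a library, coloured by log2(FPKM + 0.5) minus the mean of the 5 WT libraries. Lines divide the classes and the genotypes. WT replicate 2 is below the WT mean in 33 of the 36 genes, and the Ednrb-/- libraries in 28 to 33.

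Among the cathepsins, the proteases of the lysosome, 6 of the 10 tested fell: Ctsc, Ctsz, Ctsd, Ctsb, Ctsl and Ctsa. Ctsc, a dipeptidyl peptidase that activates granule serine proteases, held 4.41, 1.92, 4.53, 3.92 and 5.50 FPKM in WT replicates 1 to 5. In Ednrb-/- replicates 1 to 5 it held 1.25, 0.529, 0.763, 1.13 and 0.466 FPKM. The groups did not overlap, and the log2 difference was -1.76 with a standard error of 0.26 (limma, adjusted p = 0.00308), on between 40 and 431 reads per library.

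Ctsz, a carboxypeptidase, varied little among the Ednrb-/- libraries. WT replicates 1 to 5 held 46.9, 35.7, 51.9, 48.1 and 46.7 FPKM. Mutant replicates 1 to 5 held 21.0, 23.3, 23.4, 21.4 and 22.4 FPKM. All lay below every WT library, at a log2 difference of -1.02 with a standard error of 0.10 (limma, adjusted p = 0.00238).

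Ctsd, the aspartic cathepsin and a common lysosomal marker, held 212, 116, 264, 238 and 218 FPKM in WT replicates 1 to 5. It held 104, 105, 115, 115 and 92.2 FPKM in Ednrb-/- replicates 1 to 5. WT replicate 2 lay just above the highest Ednrb-/- library, and the log2 difference was -0.93 with a standard error of 0.19 (limma, adjusted p = 0.00733). Ctsb, a cysteine cathepsin, held 67.4, 40.7, 67.0, 66.0 and 60.6 FPKM in WT and 35.3, 29.6, 33.7, 33.9 and 33.5 FPKM in mutant replicates 1 to 5. These did not overlap either, at a log2 difference of -0.83 with a standard error of 0.13 (limma, adjusted p = 0.00329).

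Ctsl, the most abundant cathepsin, held 284, 143, 305, 292 and 306 FPKM in WT replicates 1 to 5 and 145, 147, 163, 160 and 139 FPKM in Ednrb-/- replicates 1 to 5. WT replicate 2 lay inside the Ednrb-/- range and the other WT libraries well above it. The log2 difference was -0.76 with a standard error of 0.19 (limma, adjusted p = 0.0178). Ctsa, a serine carboxypeptidase that also stabilises lysosomal galactosidase and sialidase, went from 56.3 ± 10.0 to 34.5 ± 6.42 FPKM (SD, n = 5 each), again with WT replicate 2, at 41.4 FPKM, inside the other group's range.

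The other cathepsins did not pass. Ctsf held 21.3 ± 1.28 FPKM in WT and 24.6 ± 2.86 in mutant libraries (SD, n = 5 each; adjusted p by limma = 0.146). Ctsk, the collagen-cleaving cathepsin of osteoclasts, held 0.828 ± 0.368 and 1.19 ± 0.319 FPKM on 10 to 47 reads per library (adjusted p = 0.287), and Ctsh and Ctso also overlapped between the groups. Ctss, a cathepsin of antigen-presenting cells, was listed at 0 in 9 libraries and rested on 1 read in WT replicate 5.

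Glycosidases, which trim sugars from glycoproteins, glycolipids and glycosaminoglycans, fell in all but Neu1. Gusb, the beta-glucuronidase, held 10.9, 7.21, 12.5, 11.4 and 11.5 FPKM in WT replicates 1 to 5. It held 5.02, 5.89, 3.84, 4.86 and 3.27 FPKM in Ednrb-/- replicates 1 to 5. The groups did not overlap, and the log2 difference of -1.15 with a standard error of 0.18 was the largest of the class (limma, adjusted p = 0.00313).

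Hexa, the alpha subunit of beta-hexosaminidase, was the glycosidase with the highest WT level. WT replicates 1 to 5 held 65.4, 38.3, 66.5, 63.2 and 62.2 FPKM, against mutant replicates 1 to 5 at 28.6, 26.8, 30.9, 30.7 and 23.7 FPKM. WT replicate 2 was again the lowest WT library but above every Ednrb-/- library, and the log2 difference was -1.04 with a standard error of 0.15 (limma, adjusted p = 0.00276). Man2b1, the lysosomal alpha-mannosidase, held 13.8, 12.7, 20.8, 16.5 and 17.7 FPKM in WT and 7.71, 7.52, 8.78, 10.9 and 5.10 FPKM in Ednrb-/- replicates 1 to 5, with no overlap (limma, adjusted p = 0.00520).

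Naglu, an enzyme of heparan sulfate breakdown, held 6.35, 4.81, 8.49, 7.31 and 10.7 FPKM in WT replicates 1 to 5, against 2.89, 4.82, 3.51, 4.65 and 2.32 FPKM in Ednrb-/- replicates 1 to 5. WT replicate 2 and Ednrb-/- replicate 2 all but coincided, and the log2 difference was -0.95 with a standard error of 0.23 (limma, adjusted p = 0.0141). Idua, which removes iduronate from heparan and dermatan sulfate, went from 2.92 ± 0.380 to 1.69 ± 0.389 FPKM (SD, n = 5 each) without overlap between the groups. Its model shares 10653 bases with that of Dgkq, on the other strand. Strand use in counting is not given.

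The calls of Gla, Glb1 and Gaa were lost when some single libraries were left out. Gla, the alpha-galactosidase, went from 8.70 ± 2.51 to 4.71 ± 0.791 FPKM (SD, n = 5 each; adjusted p by limma = 0.0268) and did not pass without WT replicate 1 (0.0519), 3 (0.0705), 4 (0.0698) or 5 (0.0631) or without Ednrb-/- replicate 3 (0.0661) or 5 (0.0590). Glb1, the beta-galactosidase, went from 15.3 ± 3.11 to 9.53 ± 1.71 FPKM (limma, adjusted p = 0.0196) and did not pass without WT replicate 3 (0.0539), 4 (0.0523) or 5 (0.0550). Its model overlaps that of Tmppe on the same strand over 10024 bases, so reads of the pair could be split between them. Gaa, the acid alpha-glucosidase that digests glycogen, went from 23.6 ± 3.18 to 17.3 ± 3.11 FPKM (limma, adjusted p = 0.0390). It did not pass without WT replicate 3 (0.0978), 4 (0.0803) or 5 (0.0988) or without Ednrb-/- replicate 1 (0.0789), 3 (0.0623) or 5 (0.0945), nor under TPM rescaling (0.0536). With no filter on low values neither Gaa (0.0669) nor Gla (0.0527) passed. Neu1, the lysosomal sialidase, held 16.0 ± 1.01 and 14.2 ± 2.17 FPKM and did not pass (adjusted p = 0.267).

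Of the sulfatases, Sgsh fell and Ids did not pass. Sgsh, which removes sulfate from heparan sulfate, held 2.01, 1.91, 2.58, 2.26 and 2.97 FPKM in WT replicates 1 to 5 and 1.29, 1.69, 0.793, 1.13 and 0.974 FPKM in Ednrb-/- replicates 1 to 5. The groups did not overlap, at a log2 difference of -0.77 with a standard error of 0.18 (limma, adjusted p = 0.0127). Ids, the iduronate sulfatase, held 23.0, 20.5, 29.7, 23.5 and 27.0 FPKM in WT and 24.2, 36.8, 33.2, 28.0 and 29.0 FPKM in Ednrb-/- replicates 1 to 5. The groups overlapped and the gene did not pass, with a log2 difference of 0.28 and a standard error of 0.13 (limma, adjusted p = 0.154).

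Lipa, the acid lipase that frees cholesterol and fatty acids from lipoprotein lipids, was the member of its class that fell. WT replicates 1 to 5 held 17.1, 10.7, 22.6, 18.0 and 25.5 FPKM, against mutant replicates 1 to 5 at 6.67, 8.76, 7.56, 9.23 and 6.19 FPKM. All Ednrb-/- libraries lay below WT, at a log2 difference of -1.19 with a standard error of 0.21 (limma, adjusted p = 0.00412).

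Asah1, the acid ceramidase, did not pass, and WT replicate 2 decided this. WT replicates 1 to 5 held 75.5, 41.8, 95.5, 82.5 and 81.6 FPKM, against mutant replicates 1 to 5 at 43.0, 59.2, 46.2, 51.7 and 44.1 FPKM. WT replicate 2 was below every Ednrb-/- library and the other WT libraries were above all of them. The log2 difference was -0.58 (limma, adjusted p = 0.0592), and -0.78 without WT replicate 2 (adjusted p = 0.00102). Smpd1, the acid sphingomyelinase, held 26.4 ± 2.18 and 25.3 ± 3.41 FPKM, and Ppt1, a thioesterase that strips palmitate from proteins, 22.0 ± 2.13 and 21.5 ± 1.63 FPKM in WT and Ednrb-/- libraries (SD, n = 5 each; adjusted p = 0.685 and 0.843). Tpp1, a peptidase that removes tripeptides, held 33.8, 27.7, 48.9, 39.8 and 39.8 FPKM in WT and 17.6, 27.8, 22.6, 23.9 and 17.4 FPKM in Ednrb-/- replicates 1 to 5. WT replicate 2 and Ednrb-/- replicate 2 met at the same level, and the gene fell by 0.78 on the log2 scale (limma, adjusted p = 0.00860).

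Among luminal proteins that are not enzymes, Grn fell while Psap and Npc2 did not pass. Grn, progranulin, a secreted growth factor precursor that is cut into granulins in lysosomes, held 42.3, 35.8, 62.8, 52.2 and 59.3 FPKM in WT replicates 1 to 5. It held 21.1, 23.2, 19.3, 28.6 and 14.6 FPKM in Ednrb-/- replicates 1 to 5. The groups did not overlap, at a log2 difference of -1.23 with a standard error of 0.19 (limma, adjusted p = 0.00316).

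Psap, the precursor of the saposins that present glycolipids to hydrolases, held 241, 214, 237, 238 and 235 FPKM in WT and 192, 237, 245, 194 and 229 FPKM in Ednrb-/- replicates 1 to 5. The ranges overlapped, with a log2 difference of -0.09 and a standard error of 0.09 (limma, adjusted p = 0.538). Npc2, which carries cholesterol within the lumen, held 74.5 ± 5.19 and 70.4 ± 2.64 FPKM (SD, n = 5 each; adjusted p = 0.474).

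**Figure D3:**
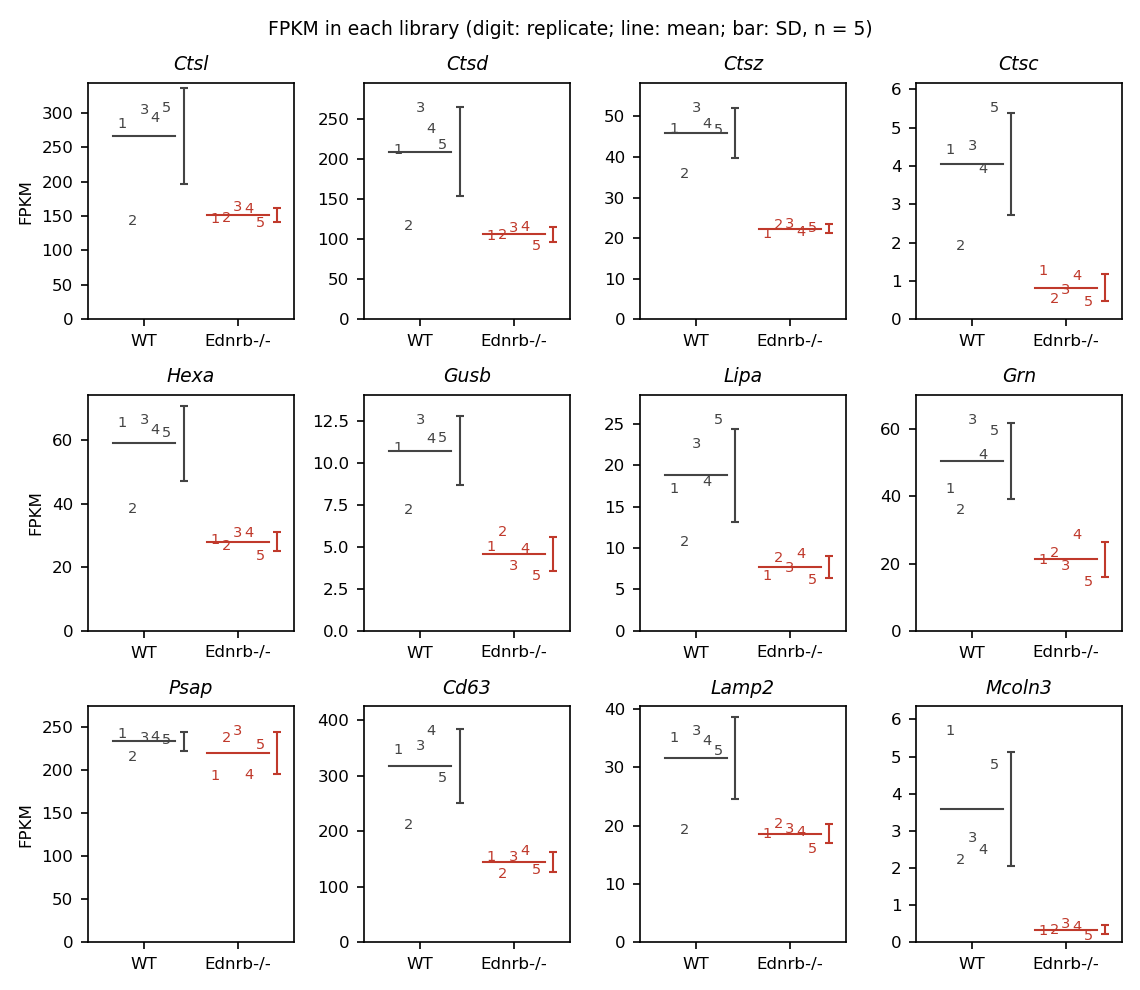
FPKM of 12 lysosomal genes in each library, each panel with its own axis from 0. Digits give the replicate, lines the mean and bars the SD of 5 libraries. In Ctsl, Ctsd, Hexa and Lamp2 the digit 2 of WT lies apart from the other WT libraries, and Psap shows overlapping groups.

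Among the membrane proteins, Mcoln3, Cd63 and Lamp2 fell. Mcoln3 encodes a cation channel of endosomes and lysosomes whose gain-of-function alleles cause coat colour and hearing defects in mice. It held 5.68, 2.23, 2.81, 2.50 and 4.77 FPKM in WT replicates 1 to 5 and 0.307, 0.339, 0.483, 0.424 and 0.162 FPKM in Ednrb-/- replicates 1 to 5. The groups were far apart, and the log2 difference of -2.22 with a standard error of 0.25 was the largest of the 36 members (limma, adjusted p = 0.00238). The gene, MGP_C57BL6NJ_G0028381, passed the filter only through its 5 WT libraries, and its values rest on between 10 and 339 reads.

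Cd63, a tetraspanin of late endosomes, lysosomes and exosomes that also sorts the melanosome fibril protein, was the most abundant member in WT. WT replicates 1 to 5 held 347, 211, 353, 380 and 295 FPKM, against mutant replicates 1 to 5 at 153, 123, 154, 165 and 131 FPKM. There was no overlap, at a log2 difference of -1.11 with a standard error of 0.16 (limma, adjusted p = 0.00276). Lamp2, a major glycoprotein of the lysosomal membrane, held 35.0, 19.2, 36.2, 34.5 and 32.8 FPKM in WT and 18.6, 20.2, 19.4, 19.0 and 16.0 FPKM in Ednrb-/- replicates 1 to 5. WT replicate 2 fell inside the Ednrb-/- range, and the log2 difference was -0.71 with a standard error of 0.16 (limma, adjusted p = 0.0106).

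Lamp1 did not pass, and again WT replicate 2 decided the call. WT replicates 1 to 5 held 263, 170, 309, 286 and 276 FPKM, against mutant replicates 1 to 5 at 171, 211, 209, 183 and 169 FPKM. The other WT libraries were above every Ednrb-/- library. The log2 difference was -0.44 (limma, adjusted p = 0.0668), and -0.59 without WT replicate 2 (adjusted p = 0.00235). Npc1, the membrane cholesterol exporter, held 9.13 ± 1.39 and 6.92 ± 1.56 FPKM (SD, n = 5 each) with an adjusted p of 0.107, and of 0.0434 without Ednrb-/- replicate 4. Scarb2, the receptor that brings glucocerebrosidase to lysosomes, held 30.1 ± 2.15 and 30.4 ± 3.10 FPKM, and Mcoln1, the main lysosomal calcium release channel, 19.9 ± 2.68 and 19.4 ± 3.00 FPKM (adjusted p = 0.939 and 0.852).

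By level, 5 members stood above the rest in both genotypes. In WT the order of means was Cd63 at 317 ± 66.9, Ctsl at 266 ± 69.3, Lamp1 at 261 ± 53.6, Psap at 233 ± 10.6 and Ctsd at 210 ± 55.9 FPKM, and neighbours in this order differed by less than the larger of their SDs. In Ednrb-/- libraries the order was Psap at 219 ± 24.4, Lamp1 at 189 ± 20.2, Ctsl at 151 ± 10.2, Cd63 at 145 ± 17.5 and Ctsd at 106 ± 9.38 FPKM (SD, n = 5 each). There only Ctsl and Cd63 were neighbours within their SDs. Cd63 thus ranked at 1 in WT and at 4 in mutants, and Psap the reverse. FPKM allows for gene length, so these levels can be set side by side.

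The genes with TCACGTG in their promoter windows were found on both sides of the threshold. Of the 9 shown above, Ctsa, Ctsd, Gaa, Gla, Glb1, Naglu and Sgsh were among the genes that fell, which is 7 of the 20 such members with a promoter entry. Lamp1 and Mcoln1, with 4 and 2 copies of CACGTG, were not called, which is 2 of the 12 members with an entry that were tested and not called. Lamp1 was called lower without WT replicate 2 (limma, adjusted p = 0.00235) and with array weights (0.00491). In turn Gaa, Gla, Glb1, Naglu and Sgsh each lost their call in some alternatives. The members with the largest falls, Mcoln3 and Ctsc, had no TCACGTG in the window. Whether the motif and the falls go together was not tested. Of the factors that bind the element, Mitf fell from 3.55 ± 1.82 to 0.523 ± 0.243 FPKM (limma, adjusted p = 0.00322). Tfe3 held 6.11 ± 0.398 and 4.64 ± 0.755 FPKM (adjusted p by limma = 0.0507). It passed by voom (0.0473), with a stricter filter (0.0455), array weights (0.0170) or a pseudocount of 0.1 (0.0491), and without Ednrb-/- replicate 1 (0.0477) or 4 (0.0301). In the other 13 of 19 alternatives it did not pass. Tfeb held 0.729 ± 0.0668 and 0.511 ± 0.128 FPKM (adjusted p by limma = 0.276; SD, n = 5 each). In both Tfe3 and Tfeb every mutant library lay below every WT library, as in 8.44% of all genes tested. Tfeb lay near the filter of 0.5 FPKM, on 35 to 69 reads per library. Tfec was below the filter.

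Other genes of the lysosome were taken from lists written down with the members and, like them, with earlier results in view. Their counts stand against 13.0% of all genes tested called lower and 6.53% called higher. Of 22 further hydrolases and cofactors tested 10 (45.5%) fell and none rose (0 at an unadjusted p under 0.05, and 0 by limma voom), with a median log2 difference of -0.47. The 3 with the lowest p were Pld3, a lysosomal exonuclease, at -0.50, Galns, a sulfatase of keratan sulfate, at -1.17, and Gm2a, the ganglioside activator that works with beta-hexosaminidase, at -0.75. Of 17 further membrane proteins 3 (17.6%) fell and 1 (5.88%) rose, shares near those of all genes, with a median of -0.23. Without WT replicate 2, 12 of the further hydrolases and cofactors and 4 of these membrane proteins were called lower, against 14.0% of all genes tested. Sidt2, an RNA transporter, fell by 0.84, the cation channel gene Tpcn1 by 0.77 and Tmem192 by 0.54 on the log2 scale. The member that rose, Lamp5, a neuronal relative of the LAMP proteins, was singled out after seeing its values and went from 30.6 ± 5.26 to 45.1 ± 7.31 FPKM (SD, n = 5 each), with a limma adjusted p of 0.0153.

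Genes that sort enzymes to lysosomes fell in 4 of 20 and rose in none (1, Gnptg, was higher at an unadjusted p under 0.05, and 0 by limma voom), with a median log2 difference of -0.13. A share of 20% is close to the 13.0% of all genes. Without WT replicate 2, 5 of the 20 were called lower, against 14.0% of all genes tested. Igf2r, the large mannose 6-phosphate receptor, went from 75.2 ± 38.3 to 16.8 ± 7.79 FPKM (SD, n = 5 each; limma, log2 difference -2.05, adjusted p = 0.00531). Cln6, which helps enzymes leave the endoplasmic reticulum, fell by 1.09 and Ap3b1, an adaptor subunit for traffic to lysosomes and melanosomes, by 0.55. The fourth was M6pr, the small mannose 6-phosphate receptor, named after its values were seen. It fell by 0.41 (limma, adjusted p = 0.0291) and did not pass without WT replicate 3, 4 or 5 or Ednrb-/- replicate 3 or 5, when its adjusted p lay between 0.0656 and 0.0773.

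All 4 protease inhibitors tested from the list named cathepsin inhibitors fell, or 3 by limma voom and 2 without WT replicate 4. Serpinb6a and Serpinb6b are serpins, and whether they act on the cathepsins described here was not examined. Serpinb6a went from 8.34 ± 2.73 to 2.48 ± 0.417 FPKM, Cst3, cystatin C, from 123 ± 23.3 to 72.7 ± 9.47 FPKM, and Cstb, cystatin B, from 73.7 ± 21.1 to 35.9 ± 9.29 FPKM (SD, n = 5 each; adjusted p by limma = 0.00339, 0.00664 and 0.0184). Cstb had an adjusted p of 0.0508 without WT replicate 4. Serpinb6b, named after its values were seen, had an adjusted p of 0.0354 and lost its call without WT replicate 1, 3, 4 or 5 or Ednrb-/- replicate 1, 3 or 5, with values between 0.0549 and 0.0907. It also did not pass by voom (0.0945), with a pseudocount of 0.1 (0.0535) or with no filter (0.0747).

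The proton pump and autophagy genes had calls in both directions. Of 19 V-ATPase subunits, which acidify the lysosome, 2 (10.5%) fell and 3 (15.8%) rose, with a median log2 difference of 0.14. There were 2 lower and 2 higher under TPM rescaling, when Atp6v1h did not pass (adjusted p = 0.0511), and 3 lower and 2 higher without WT replicate 2. Tcirg1, the a3 subunit of osteoclasts and secretory lysosomes, went from 7.21 ± 2.46 to 2.60 ± 1.13 FPKM, while Atp6v0e2 went from 32.2 ± 2.44 to 41.7 ± 3.84 FPKM and Atp6v1b2 from 58.3 ± 1.66 to 70.9 ± 3.99 FPKM (SD, n = 5 each; adjusted p by limma = 0.00890, 0.0123 and 0.0131). Named after their values were seen, Atp6v0e was the other that fell and Atp6v1h the other that rose (adjusted p = 0.0235 and 0.0426). Without WT replicate 3, 4 or 5 or Ednrb-/- replicate 5 Atp6v0e did not pass, nor did Atp6v1h without those libraries, WT replicate 2 or Ednrb-/- replicate 2 or 3, with adjusted p up to 0.0628 and 0.0994.

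Of 24 autophagy genes 4 fell and 4 rose (16.7% each), with a median log2 difference of 0.12. Those higher numbered 2 under TPM rescaling, without Ulk2 (adjusted p = 0.0932) and Atg4b (0.0943), while 4 were lower. Wipi1, an early autophagosome protein, went from 7.52 ± 2.52 to 2.67 ± 0.702 FPKM, the autophagy receptor Optn from 4.70 ± 0.924 to 2.52 ± 0.429 FPKM and the receptor Sqstm1 from 110 ± 25.4 to 65.4 ± 2.94 FPKM (SD, n = 5 each; adjusted p by limma = 0.00660, 0.00802 and 0.0105). The others, named after their values were seen, were Uvrag among those that fell and Atg12, Gabarapl2, Ulk2 and Atg4b among those that rose. Of these Uvrag and Atg12 passed without any 1 library. Gabarapl2, Ulk2 and Atg4b did not pass without 6, 8 and 9 of the 10 libraries in turn, with adjusted p up to 0.0799, 0.106 and 0.112.

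**Figure D4:**
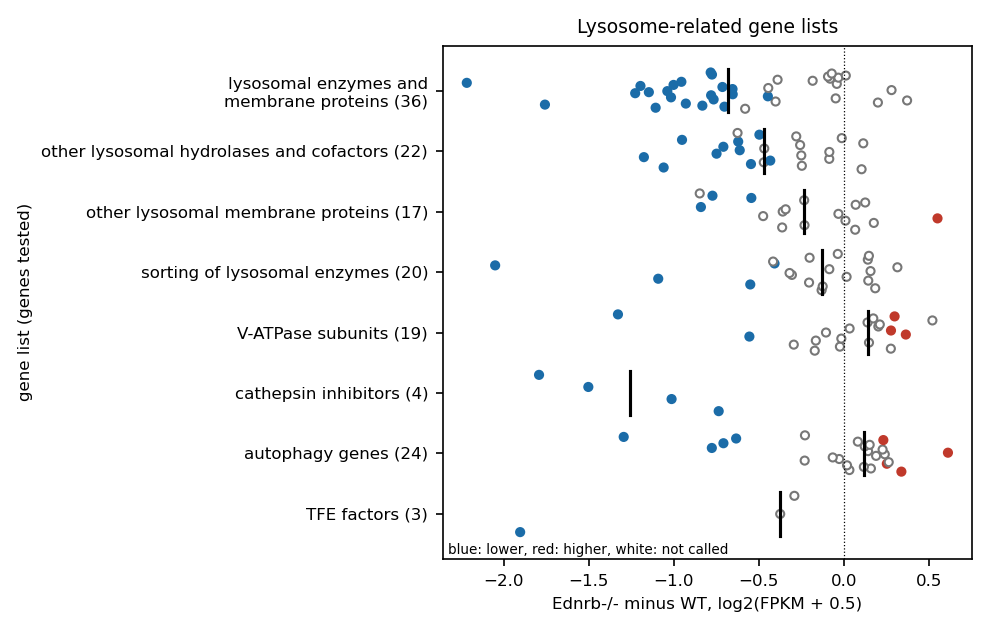
Each point is a tested gene, placed by its difference between genotypes (mutant minus WT, in log2(FPKM + 0.5)) in the row of its list, and black lines are medians. Blue genes fell, red genes rose and white genes were not called. The medians of the hydrolase lists lie left of 0, with some of their genes on the right, and those of V-ATPase and autophagy genes lie right of 0.

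Markers of some cell types were lower in mutants, as most of these genes were, and those of neurons were higher. Their counts stand against 13.0% of all genes tested called lower and 6.53% called higher. Summed over 12 smooth muscle markers, WT libraries held 337 to 2555 FPKM and mutant libraries 50.6 to 296 FPKM, and all 11 that were tested fell. WT replicate 2 was the library with 337 FPKM, and the other WT libraries held at least 1389 FPKM. Of 14 fibroblast-like mesenchyme markers 11 were tested, of which 10 fell and 1 rose. Their sum was 127 FPKM in WT replicate 2, between 301 and 692 FPKM in the other WT libraries and between 45.8 and 138 FPKM in Ednrb-/- libraries.

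Summed over the 15 melanocyte markers in the table, WT replicates 1 to 5 held 226, 129, 88.6, 75.6 and 214 FPKM, and mutant libraries 12.5 to 22.7 FPKM. Of the 9 tested 7 fell and 0 rose. Of these, Mlph passed the filter only through its WT libraries, with at most 0.481 FPKM in mutants. Among WT libraries the median of the lysosomal genes was highest in replicate 3, where melanocyte markers were second lowest. It was lowest in replicate 2, where they were in the middle and smooth muscle markers lowest. Mcoln3 instead was highest in WT replicates 1 and 5, the libraries with the most melanocyte marker RNA, as the plot by library shows. Of 9 glia and Schwann cell precursor markers tested, 7 fell and 1 rose, with a median log2 difference of -1.93. The glial precursor factor Sox10, also in the melanocyte list, went from 29.3 ± 12.2 to 4.48 ± 2.33 FPKM and the cadherin gene Cdh19 from 13.3 ± 6.16 to 0.906 ± 0.617 FPKM (SD, n = 5 each; adjusted p by limma = 0.00276 and 0.00238). The sum over this list did not follow, at 260 to 493 FPKM in WT and 410 to 535 in mutants, and most of it came from Fabp7, which is also a neural progenitor marker. Fabp7 was the gene that rose, from 268 ± 88.8 to 427 ± 61.5 FPKM (adjusted p by limma = 0.0384), and did not pass without WT replicate 3, 4 or 5 or Ednrb-/- replicate 2, 3 or 5, at 0.0580 to 0.0906. Neuron markers were higher in mutants, with 12 of 13 tested higher and sums between 1399 and 1714 FPKM in WT, against 2203 to 2481 in mutants. Of 11 neural progenitor markers tested, 2 fell and 2 rose, with a median log2 difference of 0.34. Their sums overlapped, at 866 to 991 FPKM in WT and 851 to 985 in mutants. The part of these cell types in the lysosomal differences was not tested.

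**Figure D5:**
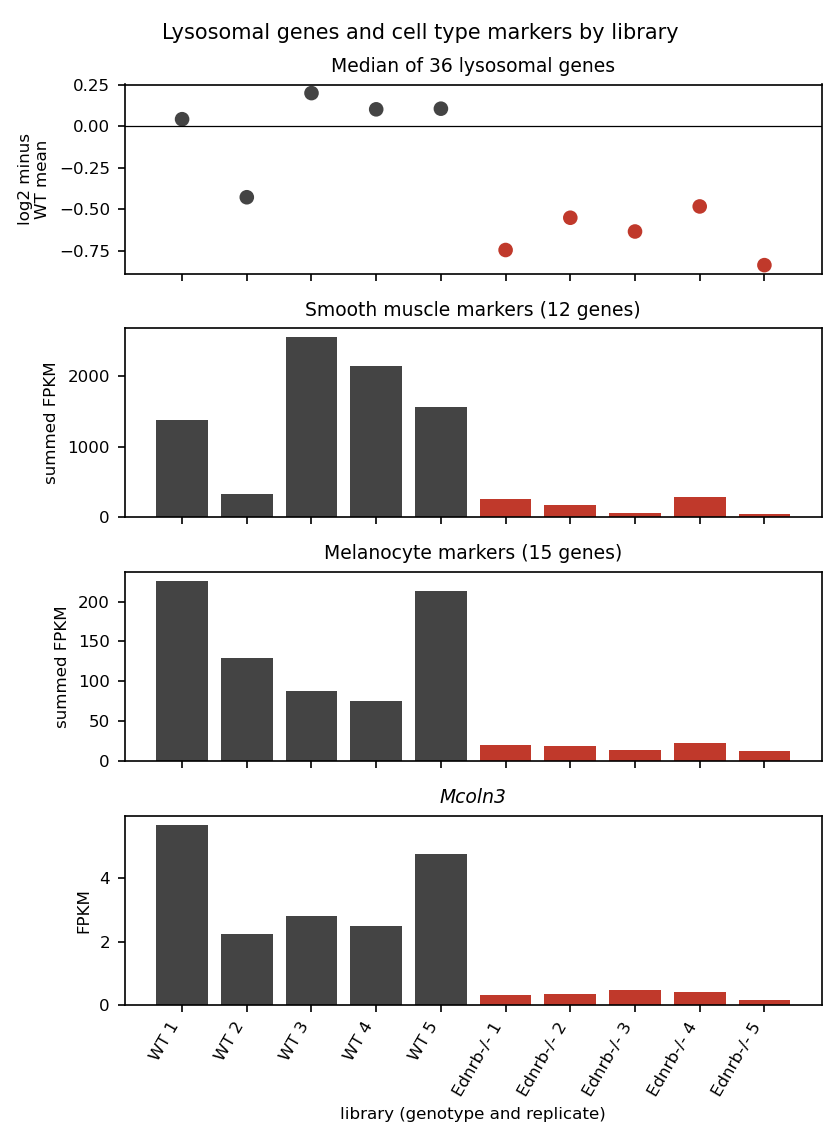
From top to bottom, for each library: the median of 36 lysosomal genes as log2(FPKM + 0.5) minus the WT mean, summed FPKM of 12 smooth muscle and of 15 melanocyte markers, and FPKM of Mcoln3. The lysosomal median and the smooth muscle sum are lowest among WT libraries in replicate 2, and Mcoln3 is highest in replicates 1 and 5.

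Macrophages, which are rich in lysosomes, left little RNA in any library. Among the 16 macrophage and microglia markers that the table lists, Itgam, C1qa, C1qc and Tyrobp (4 genes) were listed at 0 in all 10 libraries and 14 were under 0.5 FPKM in all. Their sums were between 1.74 and 3.34 FPKM in WT and from 0.200 to 2.88 in mutants; Cd68, with at most 2.18 FPKM, was tested and did not pass. Of 8 osteoclast markers, 2 were tested and 1, Itgb3, fell, with sums between 1.77 and 11.8 FPKM in WT and from 0.989 to 4.56 in mutants. Itgb3, an integrin subunit named after its values were seen, had an adjusted p by limma of 0.0195, and did not pass without WT replicate 3 (0.0554), 4 (0.0562) or 5 (0.0518) or Ednrb-/- replicate 5 (0.0502).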

How the data were processed

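The authors deposited FPKM values, 1 table with a column per library, per the file headers. Tools named in the submitters' processing notes are fastp, featureCounts 1.5.0-p3 and HISAT2 2.0.5, with mm10 as the build. Their settings and strand use are unknown here, and the gene identifiers are of the C57BL/6NJ assembly, so no position from the table is set against GRCm38.p6. The gene length column, also deposited, was used to work back reads: FPKM times length was a whole multiple of 1 step within 0.01 of a read in 100% of values.

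Genotypes were compared with limma 3.58.1 in R 4.3.3 (limma-trend, log2(FPKM + 0.5), genotype as the only term, two-sided p, Benjamini-Hochberg over 15156 genes, threshold 0.05). "Rose" and "fell" are used of genes past that threshold. Fold changes on this scale understate the change of low genes. The scripts were tested on simulated data. The p-values set the genotype difference against the spread between replicates of a genotype. The sample titles do not say whether a replicate was an embryo, a litter or a pool of explants.

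Members and lists were chosen with earlier results of these data known. Library values are given for up to 4 members of each class with the largest difference among those past the threshold, for the member of each class with the highest WT level and for members below the filter. Those of Ctsl are given under the WT level, and those of Lamp1 were added after seeing that WT replicate 2 decided its call. No member moved against its class past the threshold. Of each other list up to 3 genes with the lowest p are named, and any others were named after seeing their values. Same-numbered libraries were not taken as pairs.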

Additional observations from a re-analysis of the deposited data

Results flagged for a closer look

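In 72 groups of 5 libraries (36 genes, each genotype), 11 had a library whose gap to its nearest neighbour took up more than 0.71 of the group's range on the log2(FPKM + 0.5) scale. Chance flags about 5% of groups, or 3.6 of the 72, and genes of a library are not independent. All 11 were the same library, WT replicate 2, and it was the lowest in each. The share of the range was 0.900 for Ctsl (143 against 284 FPKM in the nearest library), 0.881 for Hexa, 0.845 for Lamp2, 0.790 for Ctsb and 0.758 for Psap. It was 0.740 for Gusb, 0.731 for Ctsd, 0.730 for Lamp1, 0.722 for Gla, 0.717 for Ctsz and 0.715 for Asah1. The gap of Psap was small in level, at 214 against 235 FPKM. The same library had the lowest smooth muscle marker sum of the WT libraries, and the part of this in the values was not tested.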

How the results depend on the processing

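Across 19 alternatives, 16 of the 21 lysosomal genes that fell passed in every one. The exceptions were Glb1, described above, and Gla, Gaa, Naglu and Sgsh, which did not pass with the replicate number as a block (adjusted p = 0.0662, 0.0750, 0.0566 and 0.0633). With that replicate block 17 members were lower, 0 higher, and 1877 genes were called in all, against 2956 without it. Same-numbered libraries did not deviate together, with correlations of their deviations between -0.16 and 0.15, and they were not taken as pairs. Leaving out 1 library at a time gave 18 to 23 members lower, 0 higher and 1945 to 3276 genes in all (1945, 1960 and 1955 without WT replicates 3, 4 and 5). The median log2 difference then lay between -0.99 and -0.68 for glycosidases and between -0.44 and -0.26 for lipid and acyl hydrolases, the lowest values being those without WT replicate 2, and was -0.43 for the latter with array weights. Over all genes the calls divided into 990 higher and 1966 lower, and into 1603 and 1730 under quantile normalization. Signs changed in 4 members that were never called. Ctso was 0.0883 under quantile normalization and between -0.2513 and 0.1784 with 1 library left out. Ppt1 was 0.0105 by voom and between -0.0841 and 0.00728 with 1 left out. Scarb2 was -0.00939 under TPM rescaling, -0.0161 with array weights and between -0.0372 and 0.0596 with 1 left out, and Mcoln1 between -0.1137 and 0.0223. Array weights also called Asah1, Lamp1 and Npc1 lower. In the other lists, where the alternatives were run after seeing the data, 28 genes were lower, and 8 higher, which became 5 under TPM rescaling, 2 with the replicate block (0 of the autophagy genes) and 4 to 7 with 1 library left out. Members with few reads, such as Ctsh, Ctsk and Mcoln3, carry counting noise.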
